A study of Mus spretus with 12 samples.

Results

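The enzymes that remove superoxide and hydrogen peroxide were followed in livers of mice fed the DDT metabolite p,p'-DDE, with and without a polyphenol-rich grape must. The set holds 10 genes, chosen by gene symbol: the superoxide dismutases Sod1, Sod2 and Sod3, catalase (Cat), the glutathione peroxidases Gpx1, Gpx3 and Gpx4, and the peroxiredoxins Prdx1, Prdx5 and Prdx6. The arrays carried 16 probes for them among 56605 probes. At least 1 probe of 9 of the 10 genes was well above background on every array of at least 1 group, and these 9 were tested among 18678 genes. Sod2 was not, because its single probe was not well above background on any of the 12 arrays.

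All animals were male Mus spretus of the inbred strain SPRET/EiJ, 22 months old at sampling, and liver RNA was measured on single-colour Agilent arrays after 60 days of feeding. The PXDDE group (4 arrays) ate a diet with 450 mg/kg p,p'-DDE and had Pedro Ximenez grape must added to its drinking water, which supplied 85 mg/L polyphenols and 31 g/L of an equal mix of glucose and fructose. The DDE group (4 arrays) ate the diet with p,p'-DDE without must. The control group (4 arrays) ate the Teklad diet with corn oil, the vehicle. The must brought sugar as well as polyphenols, and none of the groups analysed here received must without p,p'-DDE, so the PXDDE group cannot tell these apart. For the control and must groups 4 mice each are named, and whether RNA was pooled is not stated. The p-values therefore measure the spread between these arrays, which may be in part technical.

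Superoxide, made by mitochondria, cytochromes P450 and NADPH oxidases, is turned into hydrogen peroxide by the superoxide dismutases. Hydrogen peroxide is then removed by catalase inside peroxisomes, by glutathione peroxidases that spend glutathione, and by peroxiredoxins, most of which are recharged by thioredoxin. Hepatocytes hold large amounts of these enzymes, and several selenium-containing glutathione peroxidases depend on the selenium supply as well as on transcription.

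The sequences of 6 probes are shown because they are what the measured RNA bound, and because 4 of them are second probes that either repeated or did not repeat the change of their gene's main probe. All are 60 bases long and written 5′ to 3′ in the sense of the RNA, with G and C in capitals to show base composition. They were designed on the mouse reference, and their match to the Mus spretus transcripts was not examined. Coordinates are those of the scanner files in mm9.
Sod1, chr16:90224181-90224240, plus strand, from a cDNA record described as an apparent retained intron: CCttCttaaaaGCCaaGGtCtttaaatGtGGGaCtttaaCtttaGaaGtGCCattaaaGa
Gpx1, chr9:108242276-108242335, plus strand, coding: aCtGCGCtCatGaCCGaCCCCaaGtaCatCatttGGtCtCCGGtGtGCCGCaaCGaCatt
Gpx4, chr10:79518691-79518842, plus strand, coding and across an intron: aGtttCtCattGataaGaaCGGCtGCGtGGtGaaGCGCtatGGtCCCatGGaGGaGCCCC
Prdx1, chr4:116365578-116366348, plus strand, coding and across an intron: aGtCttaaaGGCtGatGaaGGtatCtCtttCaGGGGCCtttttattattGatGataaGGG
Prdx5, chr19:6981371-6981430, minus strand, coding: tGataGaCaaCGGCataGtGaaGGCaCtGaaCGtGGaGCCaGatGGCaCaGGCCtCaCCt
Prdx6, chr1:163173715-163173774, minus strand, coding: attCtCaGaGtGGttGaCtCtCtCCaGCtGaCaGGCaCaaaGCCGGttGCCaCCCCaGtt
The coding probes of Gpx1, Gpx4, Prdx5 and Prdx6 have a GC content of 55%, the Prdx1 coding probe one of 38.33% and the Sod1 intron probe one of 35%. Gpx1 and Gpx4 had no other probe, so each of those results rests on a single sequence.

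Between 50.12% and 52.01% of the spots of an array were well above background, and no spot was saturated. The brightness at the 75th percentile averaged 702.2 ± 7.63 on PXDDE arrays, 610.8 ± 46.9 on DDE arrays and 535.1 ± 32.2 on control arrays (SD, n = 4 each), so the scaling between arrays bears on every small difference below. Levels are given as log2 of the signal relative to the 75th percentile of its array, and levels of different probes are not compared. A change is a difference of these group means with its standard error from limma, and it was called at an adjusted p under 0.05 over all genes. Each change was also computed with 5 other scalings: median centring, quantile normalisation, normexp background correction, normexp with quantile normalisation, and the deposited values. Of the 9 tested genes, 8 lay above the 75th percentile of the arrays on average.

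All 12 hepatocyte markers were well above background on all arrays. Single markers moved in both directions: 3 were called higher and 1 lower in DDE against control livers. In PXDDE against DDE livers 3 were higher and 4 lower, and in PXDDE against control livers 6 were higher and 5 lower. Over all genes, 24%, 20.2% and 31.6% were called higher in these comparisons, and 26.3%, 29.7% and 39.3% lower. Opposite changes cancel in the mean of the 12 markers, which therefore does not show that single markers were unchanged. Relative to control, this mean lay between 0.01 and 0.03 in PXDDE livers and between 0 and 0.05 in DDE livers. It lay between -0.03 and 0.03 in control livers. Markers of other tissues differed far more between groups: the 8 tested adrenal cortex genes averaged between 0.57 and 0.69 in PXDDE livers, between -3.61 and -3.35 in DDE livers and between -0.07 and 0.06 in control livers on the same scale. Of the 8 adrenal cortex genes, 6 were well above background on all arrays, so these means include values that were not. The mean of the 12 pancreatic acinar genes lay between 1.91 and 1.98 in PXDDE livers and between -0.34 and -0.21 in DDE livers. It lay between -0.05 and 0.04 in control livers. In bulk tissue, fewer cells of a type and less RNA per cell cannot be told apart, and the part of other tissues in the results below was not tested except where a value is given.

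With DDE, catalase and the 3 peroxiredoxins of the set rose, and Gpx1, Gpx3 and Gpx4 fell. In all, 7 of the 9 genes passed, 4 higher and 3 lower, beside 50.3% of all genes tested (24% higher and 26.3% lower). For 7 genes no DDE array reached into the control range, beside 46.4% of all genes. The median change over the 9 genes was 0.0916 on the log2 scale, beside -0.0239 over all genes. The 3 glutathione peroxidases and the other 4 genes that passed had opposite signs, and these signs held under all 6 scalings, although Gpx4 was called under only 2 of them.

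In PXDDE against DDE livers, Gpx4 fell under every scaling, and catalase was higher under every scaling but missed the threshold under the 75th percentile. Here 5 of the 9 genes passed, none higher and 5 lower (Gpx1, Gpx4, Prdx1, Prdx5 and Prdx6), beside 49.9% of all genes (20.2% higher and 29.7% lower). The groups did not overlap for 6 genes, beside 44.7% of all genes. Under quantile normalisation, under normexp with quantile normalisation and in the deposited values, Gpx1, Prdx5 and Prdx6 turned to the higher side, and 3 genes passed, 2 higher and 1 lower.

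In PXDDE against control livers, Cat and Sod3 rose and Gpx1, Gpx3 and Gpx4 fell under all 6 scalings. With the 75th percentile, 6 of the 9 genes passed, 2 higher and 4 lower, beside 70.9% of all genes (31.6% higher and 39.3% lower), a share near the background. The groups did not overlap for 5 genes, beside 65.2% of all genes. The fourth lower gene was Prdx1, which was called higher instead under 4 other scalings. The comparisons share arrays with each other, so their counts are not independent of one another.

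**Figure D1:**
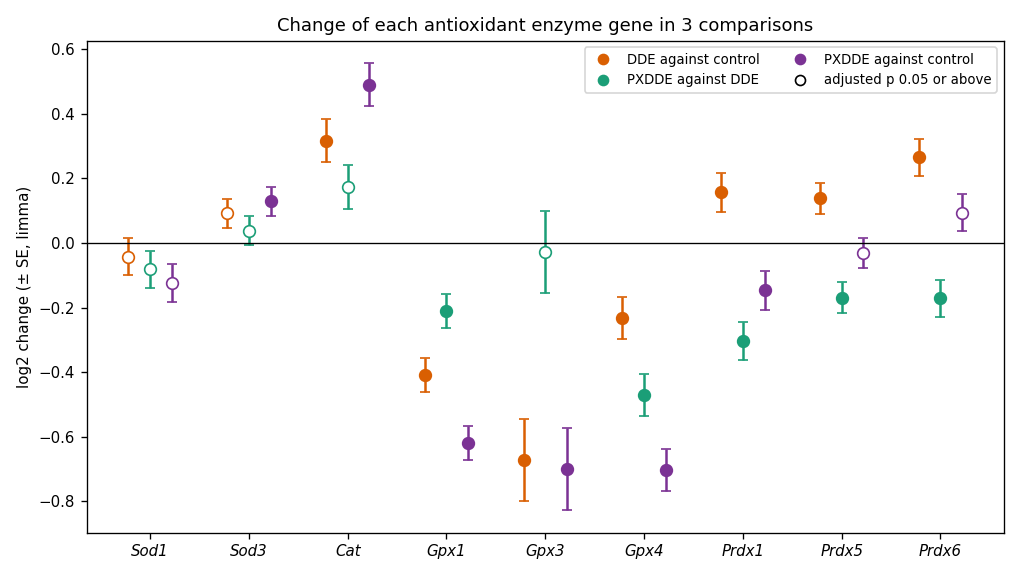
The vertical axis is the log2 change with its standard error for the 9 tested genes in each of 3 comparisons, and open symbols mark an adjusted p of 0.05 or above. The Gpx genes lie below 0 in both comparisons with control, Cat lies above 0 in all 3 comparisons, and the 3 Prdx genes lie above 0 in DDE against control livers and below 0 in PXDDE against DDE livers.

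**Figure D2:**
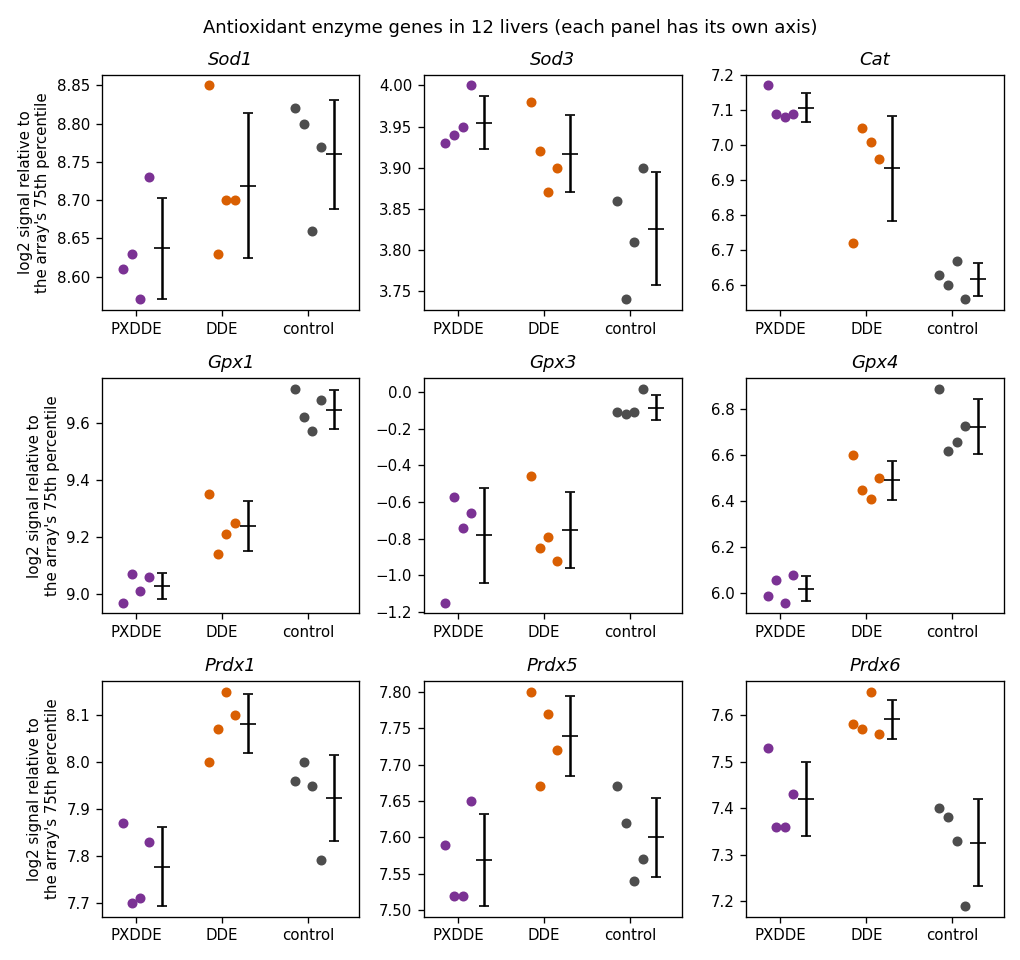
Each point is 1 liver array of the PXDDE, DDE or control group, with the group mean and SD beside it, on the log2 scale relative to the array's 75th percentile. For Gpx1 and Gpx4 the 3 groups form separate levels, with PXDDE lowest at means of 9.03 and 6.02 and control highest at means of 9.65 and 6.72.

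Sod1 is the copper-zinc superoxide dismutase of the cytosol. Its main probe read 8.61, 8.63, 8.57 and 8.73 in PXDDE livers, 8.85, 8.63, 8.70 and 8.70 in DDE livers, and 8.82, 8.80, 8.66 and 8.77 in control livers. The groups overlap in every comparison. The log2 change was -0.04 ± 0.0585 in DDE against control livers (adjusted p = 0.579), -0.08 ± 0.0585 in PXDDE against DDE livers (adjusted p = 0.268) and -0.12 ± 0.0585 in PXDDE against control livers (adjusted p = 0.0782). None of these passed with the 75th percentile, and the sign turned positive under 4 of the 6 scalings in each comparison. Under those 4, Sod1 was called higher in PXDDE against control livers, at 0.18 to 0.25 (adjusted p of 0.00414 to 0.0186). It was also called higher in DDE against control livers with median centring (0.19, adjusted p = 0.0283) and in PXDDE against DDE livers with quantile normalisation (0.21, adjusted p = 0.0119).

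The probe for the retained-intron form of Sod1 was lower in both groups given p,p'-DDE. It read -1.22, -1.49, -1.21 and -1.54 in PXDDE livers, -1.04, -0.96, -1.35 and -0.85 in DDE livers, and -0.46, -0.45, -0.40 and -0.36 in control livers. Every array with p,p'-DDE lay below every control array, while PXDDE and DDE arrays overlapped. With each of 27098 probes fitted on its own, it fell 1.55-fold in DDE against control livers (log2 change -0.63, adjusted p = 0.000628) and 1.93-fold in PXDDE against control livers (-0.95, adjusted p = 1.1e-05), where 47.5% and 68.6% of all probes passed. The change was negative under all 6 scalings in each comparison. In PXDDE against DDE livers, where 45.7% of all probes passed, it fell by 0.32 on the log2 scale (adjusted p = 0.0328), but not with median centring (adjusted p = 0.192). The difference between both Sod1 probes was not itself tested.

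Sod2, the manganese superoxide dismutase of mitochondria, had values between -7.03 and -6.36 over the 12 arrays, all not well above background. No fold is given for it, and the values do not describe the level of Sod2 RNA. Sod3, the secreted superoxide dismutase, read 3.93, 3.94, 3.95 and 4.00 in PXDDE livers, 3.98, 3.92, 3.87 and 3.90 in DDE livers, and 3.86, 3.74, 3.81 and 3.90 in control livers. All 4 PXDDE livers lay above all 4 control livers, with DDE livers overlapping both groups. Sod3 rose 1.09-fold in PXDDE against control livers (log2 change 0.13 ± 0.045, adjusted p = 0.0226), and it was called under all 6 scalings at changes between 0.10 and 0.50. The call was lost without PXDDE replicate 4 (adjusted p = 0.0615), control replicate 2 (adjusted p = 0.0742) or control replicate 3 (adjusted p = 0.0544). The change was 0.09 in DDE against control livers (adjusted p = 0.112) and 0.04 in PXDDE against DDE livers (adjusted p = 0.513).

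Catalase, the heme enzyme that breaks down hydrogen peroxide in peroxisomes, was highest in PXDDE livers. It read 7.17, 7.09, 7.08 and 7.09 in PXDDE livers, 6.72, 7.05, 7.01 and 6.96 in DDE livers, and 6.63, 6.60, 6.67 and 6.56 in control livers. The 3 groups do not overlap, and DDE replicate 1 was the DDE array closest to control. Catalase rose 1.25-fold in DDE against control livers (log2 change 0.32 ± 0.0671, adjusted p = 0.0023) and 1.40-fold in PXDDE against control livers (0.49 ± 0.0671, adjusted p = 4.45e-05). Within the 3 slides that hold both groups, the difference lay between 0.33 and 0.41 in DDE against control livers and between 0.47 and 0.52 in PXDDE against control livers. The scalings gave 0.32 to 0.55 and 0.49 to 1.00. The change in PXDDE against DDE livers was 0.17 ± 0.0671 (adjusted p = 0.0505), and it was called under the other 5 scalings at 0.21 to 0.47. It was also called without DDE replicate 2 (0.21, adjusted p = 0.0289) or DDE replicate 3 (0.20, adjusted p = 0.0495), and it was 0.10 without DDE replicate 1 (adjusted p = 0.0838).

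Gpx1, the abundant selenium-dependent glutathione peroxidase of the cytosol and mitochondria, fell in steps. It read 8.97, 9.07, 9.01 and 9.06 in PXDDE livers, 9.35, 9.14, 9.21 and 9.25 in DDE livers, and 9.72, 9.62, 9.57 and 9.68 in control livers. No PXDDE array overlapped a DDE array, and no DDE array overlapped a control array. Gpx1 fell 1.33-fold in DDE against control livers (log2 change -0.41 ± 0.0533, adjusted p = 8.08e-05) and 1.54-fold in PXDDE against control livers (-0.62 ± 0.0533, adjusted p = 9.58e-07). Both were called under all 6 scalings, with changes as small as -0.18 in each. It fell 1.16-fold in PXDDE against DDE livers (-0.21 ± 0.0533, adjusted p = 0.00679), but the change was positive and not called under quantile normalisation (0.07), normexp with quantile normalisation (0.08) and the deposited values (0.11), and it was -0.07 with median centring (adjusted p = 0.347). Leaving out single arrays did not remove any of the 3 calls.

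Gpx3 encodes the secreted glutathione peroxidase of plasma, which is made mainly in kidney. It read -1.15, -0.57, -0.74 and -0.66 in PXDDE livers, -0.46, -0.85, -0.79 and -0.92 in DDE livers, and -0.11, -0.12, -0.11 and 0.02 in control livers. All arrays with p,p'-DDE lay below all control arrays, and PXDDE and DDE arrays overlapped. Gpx3 fell 1.59-fold in DDE against control livers (log2 change -0.67 ± 0.127, adjusted p = 0.00111) and 1.62-fold in PXDDE against control livers (-0.70 ± 0.127, adjusted p = 0.000406). It was lower under all 6 scalings in both. The change in PXDDE against DDE livers was -0.03 ± 0.127 (adjusted p = 0.873), and its sign turned without DDE replicate 1 (0.07) or PXDDE replicate 1 (0.10). Of the 9 kidney tubule markers only 3 were tested, and Umod, Slc34a1, Slc22a6, Slc12a1, Slc12a3 and Cubn were not well above background on all arrays of any group. The mean of the 3 tested lay between 0.47 and 0.67 in PXDDE livers, between -0.79 and -0.49 in DDE livers and between -0.13 and 0.13 in control livers. These 3 disagreed in DDE against control livers, where 1 was called higher and 1 lower. Their median change there was 0.3, opposite in sign to the mean. Of these 3, 2 were well above background on all arrays, so the mean includes values that were not. Adipocyte markers were tested for 8 of 8, and 7 were well above background on all arrays. Their mean lay between -0.39 and -0.21 in PXDDE livers and between -0.86 and -0.73 in DDE livers. It lay between -0.14 and 0.07 in control livers. Smooth muscle, pericyte and fibroblast markers, 12 of 12 tested, averaged between -0.27 and -0.23 in PXDDE livers, between -0.24 and -0.17 in DDE livers and between -0.03 and 0.05 in control livers. Skeletal muscle markers, 12 of 12 tested, averaged between -1.77 and -1.65 in PXDDE livers, between -1.37 and -1.21 in DDE livers and between -0.02 and 0.03 in control livers. The part of any of these in the Gpx3 change was not tested.

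Gpx4 is the glutathione peroxidase that reduces lipid peroxides in membranes and restrains ferroptosis. It read 5.99, 6.06, 5.96 and 6.08 in PXDDE livers, 6.60, 6.45, 6.41 and 6.5 in DDE livers, and 6.89, 6.62, 6.66 and 6.73 in control livers. The PXDDE arrays lay clearly below all others, and every DDE array lay just below the lowest control array. Gpx4 fell 1.39-fold in PXDDE against DDE livers (log2 change -0.47 ± 0.0649, adjusted p = 0.000121) and 1.63-fold in PXDDE against control livers (-0.70 ± 0.0649, adjusted p = 1.67e-06). Both calls were made under all 6 scalings, at -0.47 to -0.15 and at -0.70 to -0.21. Within slides the differences lay between -0.53 and -0.45 in PXDDE against DDE livers and between -0.67 and -0.66 in PXDDE against control livers. In DDE against control livers it fell 1.18-fold (-0.23 ± 0.0649, adjusted p = 0.0109), but 4 other scalings gave -0.082 to -0.002 and no call.

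Kupffer cell and macrophage markers also fell in steps: 10 of 12 were lower in DDE against control livers, 10 of 12 in PXDDE against DDE livers and 12 of 12 in PXDDE against control livers. Their mean lay between -0.72 and -0.65 in PXDDE livers, between -0.36 and -0.28 in DDE livers and between -0.02 and 0.03 in control livers. The mean of the 6 tested erythroid markers, a cell type rich in Gpx1 and Prdx2, lay between -0.97 and -0.72 in PXDDE livers, between 0.04 and 0.23 in DDE livers and between -0.02 and 0.02 in control livers. Of these 6, 2 were called higher and 1 lower in DDE against control livers, where their median change was -0.128. In PXDDE against DDE livers none was higher and 5 were lower, with a median change of -0.935. In PXDDE against control livers, 1 was higher and 5 were lower. Lymphocyte markers, 8 of 10 tested, averaged between -1.30 and -1.24 in PXDDE livers, between -0.92 and -0.82 in DDE livers and between -0.02 and 0.03 in control livers. Neutrophil markers, 7 of 8 tested, averaged between -1.59 and -1.50 in PXDDE livers, between -0.12 and -0.06 in DDE livers and between -0.04 and 0.04 in control livers. The part of these cells, and of the skeletal muscle RNA given above, in the changes of Gpx1 and Gpx4 was not tested.

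Prdx1, a cytosolic peroxiredoxin and a known target of the transcription factor Nrf2, was highest in DDE livers. Its main probe read 7.87, 7.70, 7.71 and 7.83 in PXDDE livers, 8.0, 8.07, 8.15 and 8.10 in DDE livers, and 7.96, 8.0, 7.95 and 7.79 in control livers. Every DDE array lay at or above the highest control array, and PXDDE arrays overlapped control arrays. Prdx1 rose 1.12-fold in DDE against control livers (log2 change 0.16 ± 0.0597, adjusted p = 0.0465) and was higher under all 6 scalings, at 0.16 to 0.39. This call was lost in 9 of the 12 fits that left out an array. Against DDE livers, Prdx1 fell 1.23-fold in PXDDE livers (-0.30 ± 0.0597, adjusted p = 0.00141), yet 4 other scalings gave -0.16 to -0.02 and no call. Against control livers, it fell by 0.15 in PXDDE livers (adjusted p = 0.0441), and it was called higher, at 0.23 to 0.30, under 4 other scalings.

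The other 2 Prdx1 probes that were well above background on all arrays also rose in DDE against control livers. The Prdx1 coding probe read 6.47, 6.58, 6.46 and 6.58 in PXDDE livers, 6.77, 6.89, 6.92 and 6.81 in DDE livers, and 6.65, 6.60, 6.64 and 6.66 in control livers, and it rose by 0.21 with DDE (adjusted p = 0.00471). The third Prdx1 probe read 4.54, 4.67, 4.6 and 4.52 in PXDDE livers, 4.79, 4.74, 4.72 and 4.72 in DDE livers, and 4.40, 4.47, 4.49 and 4.61 in control livers, and it rose by 0.25 (adjusted p = 0.00276). With the 75th percentile, the DDE arrays were the highest on both probes. The change in PXDDE against DDE livers was then -0.324 for the coding probe and -0.162 for the third. The coding probe gave -0.034 to -0.012 and no call under quantile normalisation, normexp with quantile normalisation and the deposited values. No other scaling called the third probe in that comparison, at -0.122 to -0.018. A dim probe that lies within the genomic stretch spanned by the third was well above background on 1 of 4 PXDDE arrays, 4 of 4 DDE arrays and 1 of 4 control arrays. It was kept only through the DDE group, so its values support nothing here.

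Prdx5, a peroxiredoxin found in mitochondria, peroxisomes and cytosol, read 7.59, 7.52, 7.52 and 7.65 in PXDDE livers, 7.80, 7.67, 7.77 and 7.72 in DDE livers, and 7.67, 7.62, 7.54 and 7.57 in control livers. DDE livers were again the highest, and the lowest DDE array lay just above the highest control array. Prdx5 rose 1.1-fold in DDE against control livers (log2 change 0.14 ± 0.0479, adjusted p = 0.0311) and was higher under all 6 scalings, at 0.14 to 0.37. The call was lost without DDE replicate 1 or 3, or without control replicate 2, 3 or 4, with an adjusted p of up to 0.0864. Prdx5 fell by 0.17 in PXDDE against DDE livers (adjusted p = 0.0119), but 3 other scalings gave the opposite sign, and 2 of them called it higher. Its change in PXDDE against control livers was -0.03 (adjusted p = 0.579), and 4 other scalings called it higher, at up to 0.38. The Prdx5 coding probe rose by 0.18 in DDE against control livers (adjusted p = 0.018), and its changes in PXDDE against DDE livers (-0.09, adjusted p = 0.204) and in PXDDE against control livers (0.09, adjusted p = 0.159) did not pass with the 75th percentile. Under all 5 other scalings it was called higher in PXDDE against control livers, at 0.15 to 0.51, and under 3 of them it was called higher in PXDDE against DDE livers, at 0.21 to 0.25.

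Prdx6 is the peroxiredoxin that uses glutathione and also has phospholipase activity. Its main probe read 7.53, 7.36, 7.36 and 7.43 in PXDDE livers, 7.58, 7.57, 7.65 and 7.56 in DDE livers, and 7.40, 7.38, 7.33 and 7.19 in control livers. DDE arrays lay above all others, and PXDDE and control arrays overlapped. Prdx6 rose 1.20-fold in DDE against control livers (log2 change 0.26 ± 0.0566, adjusted p = 0.00243), at 0.26 to 0.50 under the 6 scalings. On its main probe, Prdx6 fell by 0.17 in PXDDE against DDE livers (adjusted p = 0.0261), a call that no other scaling made and that 3 of them turned positive, and it was lost without DDE replicate 3, PXDDE replicate 2 or PXDDE replicate 3. Its change in PXDDE against control livers was 0.09 (adjusted p = 0.158), and it was called higher under the other 5 scalings, at 0.15 to 0.55.

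The Prdx6 coding probe, whose sequence is given above, was higher in both groups given p,p'-DDE. It read 5.72, 5.82, 5.74 and 5.69 in PXDDE livers, 5.58, 5.65, 5.73 and 5.65 in DDE livers, and 5.27, 5.26, 5.25 and 5.45 in control livers. All arrays with p,p'-DDE lay above all control arrays. This probe rose by 0.34 in DDE against control livers (adjusted p = 0.00061) and by 0.43 in PXDDE against control livers (adjusted p = 4.06e-05), and the second change lay between 0.43 and 0.81 under the 6 scalings. Its change in PXDDE against DDE livers was 0.09 (adjusted p = 0.223), opposite in sign to the main probe, but both depend on the scaling. The coding probe was called higher there under median centring (0.23, adjusted p = 0.00497), quantile normalisation (0.39), normexp with quantile normalisation (0.41) and the deposited values (0.37), and the main probe was also positive under the last 3 of these. The difference between both Prdx6 probes was not itself tested.

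**Figure D3:**
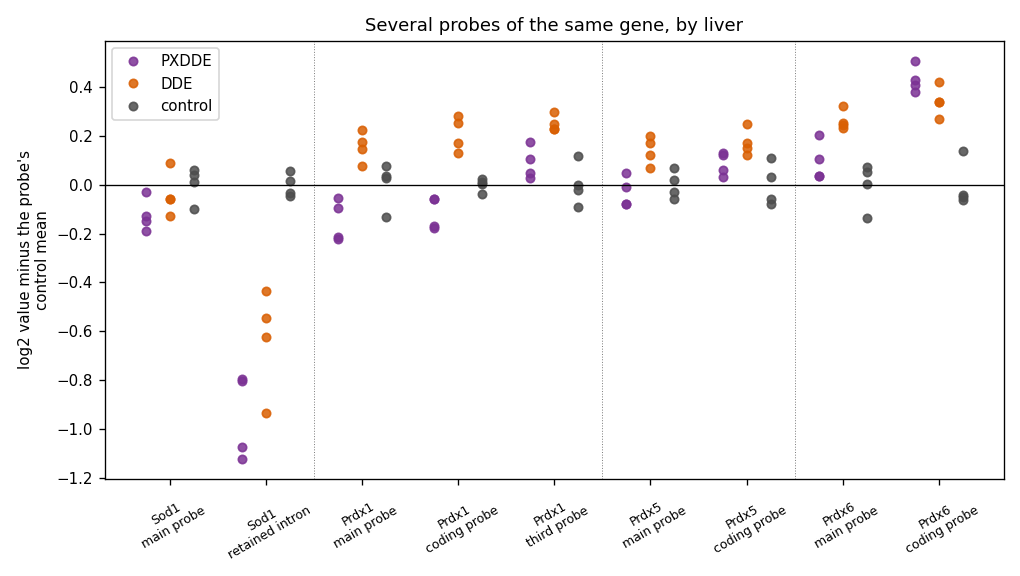
Each point is 1 array, plotted as its log2 value minus the control mean of the same probe, for 9 probes of Sod1, Prdx1, Prdx5 and Prdx6. The Sod1 intron probe lies below control in PXDDE and DDE livers while the main Sod1 probe overlaps control, and the Prdx6 coding probe lies above control in both.

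**Figure D4:**
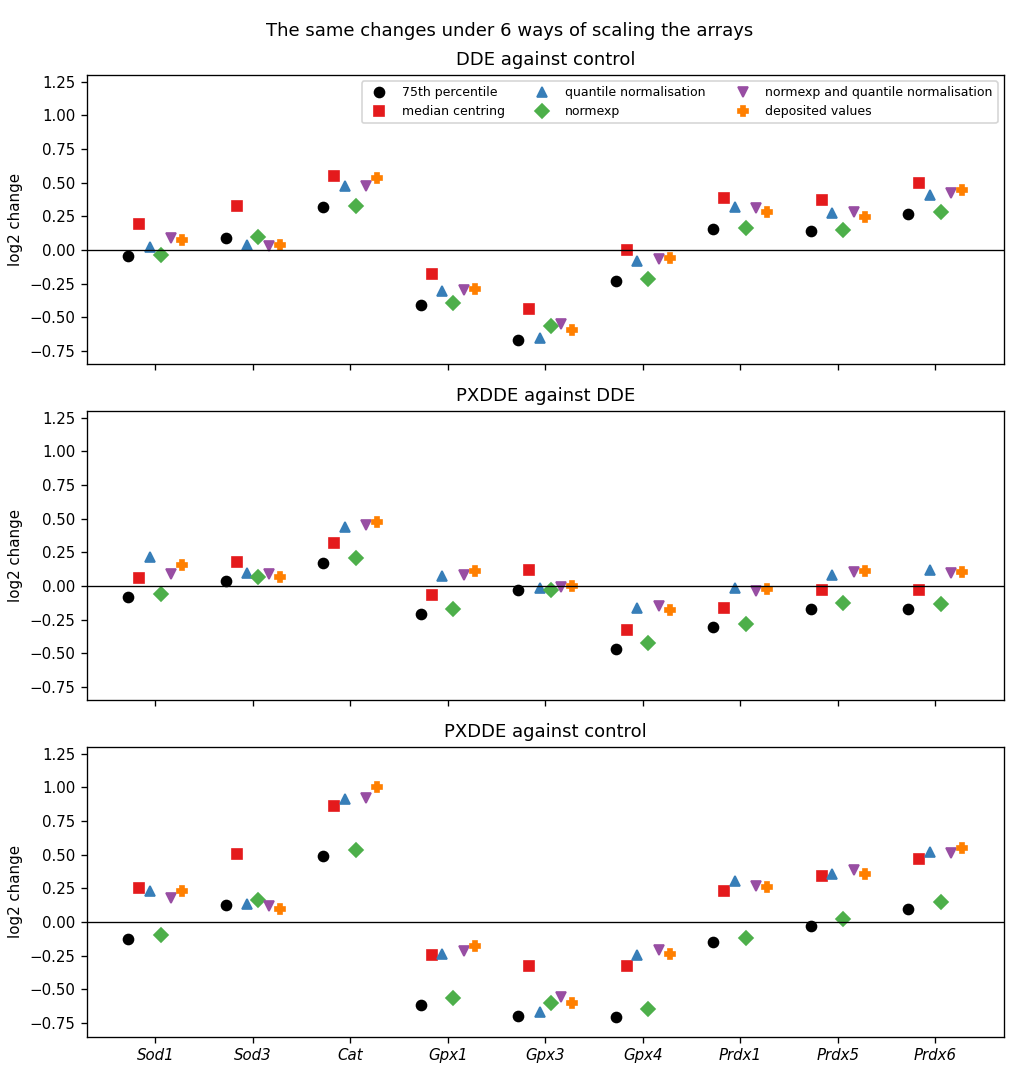
The vertical axis is the log2 change of the 9 tested genes in each comparison, with a symbol for each of the 6 scalings. Cat, Gpx1 and Gpx3 keep their side of 0 in both comparisons with control. Gpx4 does so as well, but it lies at -0.002 with median centring in DDE against control livers. Prdx1 in PXDDE against control livers lies between -0.15 and 0.30.

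Counts over lists of related genes are given with the 75th percentile scaling and, beside it, with scalings that moved them. With the 75th percentile, 24% of all genes were called higher and 26.3% lower in DDE against control livers. The shares were 20.2% and 29.7% in PXDDE against DDE livers, and 31.6% and 39.3% in PXDDE against control livers. Median centring called 59.4%, 52.3% and 75.6% of all genes in these comparisons, and 81.3%, 66.3% and 73.1% of those were higher. Quantile normalisation called 48.8%, 49.2% and 70.6%, of which 52.4%, 52.2% and 53.4% were higher. The deposited values called 46%, 46.3% and 68.7%, of which 52%, 52.6% and 53.7% were higher. Of 9 listed glutathione peroxidases, peroxiredoxins and the SOD chaperone Ccs, 7 were tested. Of these, 1 rose and 3 fell in DDE against control livers, although 3 rose and 1 fell under median centring. None rose and 4 fell in PXDDE against DDE livers, while 1 rose and 2 fell under normexp with quantile normalisation and in the deposited values. In PXDDE against control livers, 1 rose and 6 fell, against 2 and 3 under median centring. Gpx2, known from gut epithelium, fell 1.76-fold in PXDDE against DDE livers (adjusted p = 3.96e-06) and 2.08-fold in PXDDE against control livers (adjusted p = 1.48e-07). Prdx4, the peroxiredoxin of the endoplasmic reticulum, fell 1.40-fold in PXDDE against DDE livers (adjusted p = 4.18e-06) and 1.46-fold in PXDDE against control livers (adjusted p = 4.76e-07). Prdx2, the main peroxiredoxin of red cells, fell 1.27-fold in PXDDE against DDE livers (adjusted p = 0.000169). Gpx8 fell 1.52-fold in DDE against control livers (adjusted p = 0.000128), and Gpx7 rose 1.27-fold (adjusted p = 0.000707). Each gene named from this and the following lists kept its sign under all 6 scalings. Their folds and adjusted p are those of the 75th percentile, and not all calls held under other scalings. In the deposited values, 2 genes of this list were called lower in PXDDE against DDE livers, so Gpx2, Prdx4 and Prdx2 were not all called there.

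Glutathione is the electron source of the glutathione peroxidases. The list of its synthesis and reduction also holds Ggt1, Chac1 and Chac2, which break glutathione down, and the NADPH enzymes G6pdx, Idh1 and Pgd. Its counts are therefore not counts of synthesis genes alone. Of the 10 genes tested, 7 rose and 3 fell in DDE against control livers. In PXDDE against DDE livers 6 rose and 4 fell, and in PXDDE against control livers 7 rose and 2 fell. The 7 include Ggt1 in both comparisons with control, which was well above background on no control array and entered the test only through the groups where it was high. Gclm, the modifier subunit of the rate-limiting enzyme of glutathione synthesis, rose 2.81-fold in DDE against control livers (adjusted p = 1.66e-09) and 3.71-fold in PXDDE against control livers (adjusted p = 8.9e-11). Gsr, glutathione reductase, rose 1.61-fold in DDE against control livers (adjusted p = 6.99e-08) and 2.09-fold in PXDDE against control livers (adjusted p = 7.23e-10). G6pdx, which makes NADPH in the pentose phosphate pathway, fell 1.99-fold in DDE against control livers (adjusted p = 2.21e-07) and rose 2.55-fold in PXDDE against DDE livers (adjusted p = 1.77e-08). Chac1, which degrades glutathione, fell 2.02-fold in PXDDE against DDE livers (adjusted p = 2.6e-08).

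The thioredoxin and protein repair list had 8 of 18 genes higher and 4 lower in DDE against control livers. It had 4 higher and 5 lower in PXDDE against DDE livers (5 and 2 under median centring), and 7 higher and 5 lower in PXDDE against control livers (14 and 2 under median centring). Srxn1, sulfiredoxin, which reactivates overoxidised peroxiredoxins, rose 2.34-fold in DDE against control livers (adjusted p = 2.24e-07) and 2.21-fold in PXDDE against control livers (adjusted p = 1.16e-07). Txnrd1, thioredoxin reductase of the cytosol, rose 1.45-fold in DDE against control livers (adjusted p = 2.15e-06). Msrb1, a selenoprotein that repairs oxidised methionine, fell 1.36-fold in PXDDE against DDE livers (adjusted p = 9.17e-06).

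Selenium handling is listed because Gpx1, Gpx3 and Gpx4 contain selenocysteine. Of 20 genes tested, 6 rose and 8 fell in DDE against control livers (9 rose and 1 fell under median centring), 2 rose and 6 fell in PXDDE against DDE livers (5 and 2 under median centring), and 6 rose and 8 fell in PXDDE against control livers (11 and 3 under median centring). Pstk, the kinase that primes selenocysteine tRNA, fell 1.41-fold in DDE against control livers (adjusted p = 1.13e-05) and 1.48-fold in PXDDE against DDE livers (adjusted p = 3.64e-06). Secisbp2, which reads the selenocysteine signal in selenoprotein mRNA, rose 1.27-fold in DDE against control livers (adjusted p = 0.000799). Sep15, a selenoprotein of the endoplasmic reticulum, fell 1.37-fold in PXDDE against DDE livers (adjusted p = 0.000242).

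Catalase is imported into peroxisomes, and of 18 peroxin and peroxisomal membrane genes 9 rose and 3 fell in DDE against control livers (13 and 0 under median centring). Pex5, the import receptor that carries catalase, rose 1.35-fold (adjusted p = 1.48e-05), and Abcd3, an abundant peroxisomal membrane transporter, rose 1.27-fold (adjusted p = 0.000629). The PXDDE against DDE comparison had 2 higher and 7 lower, among them Pex11a, which promotes peroxisome division, at 1.97-fold lower (adjusted p = 9.59e-08), whereas median centring gave 5 higher and 1 lower. In PXDDE against control livers, 7 rose and 6 fell (11 and 1 under median centring).

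Among 20 tested sources of hydrogen peroxide and superoxide, 7 rose and 6 fell in DDE against control livers (13 and 2 under median centring). In PXDDE against DDE livers 8 rose and 8 fell (9 and 3 in the deposited values), and in PXDDE against control livers 9 rose and 8 fell (12 and 5 under median centring). Aox1, aldehyde oxidase, rose 2.83-fold in DDE against control livers (adjusted p = 5.32e-10) and 1.52-fold in PXDDE against DDE livers (adjusted p = 1.1e-06). Cyba, a membrane subunit of the phagocyte NADPH oxidase, fell 1.44-fold in DDE against control livers (adjusted p = 0.000248) and 1.58-fold in PXDDE against DDE livers (adjusted p = 4.95e-05).

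Of 16 other redox buffers, 9 rose and 2 fell in DDE against control livers, 1 rose and 10 fell in PXDDE against DDE livers (5 rose and 6 fell under quantile normalisation), and 4 rose and 7 fell in PXDDE against control livers. That last majority turned around under 4 other scalings, with 8 higher and 3 lower under median centring and 6 higher and 4 lower under quantile normalisation, normexp with quantile normalisation and the deposited values. The metallothioneins Mt1 and Mt2, which bind zinc and copper, fell 2.45-fold (adjusted p = 8.41e-09) and 3.57-fold (adjusted p = 9.94e-11) in PXDDE against DDE livers. Cp, ceruloplasmin, rose 1.48-fold in DDE against control livers (adjusted p = 4.59e-06).

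**Figure D5:**
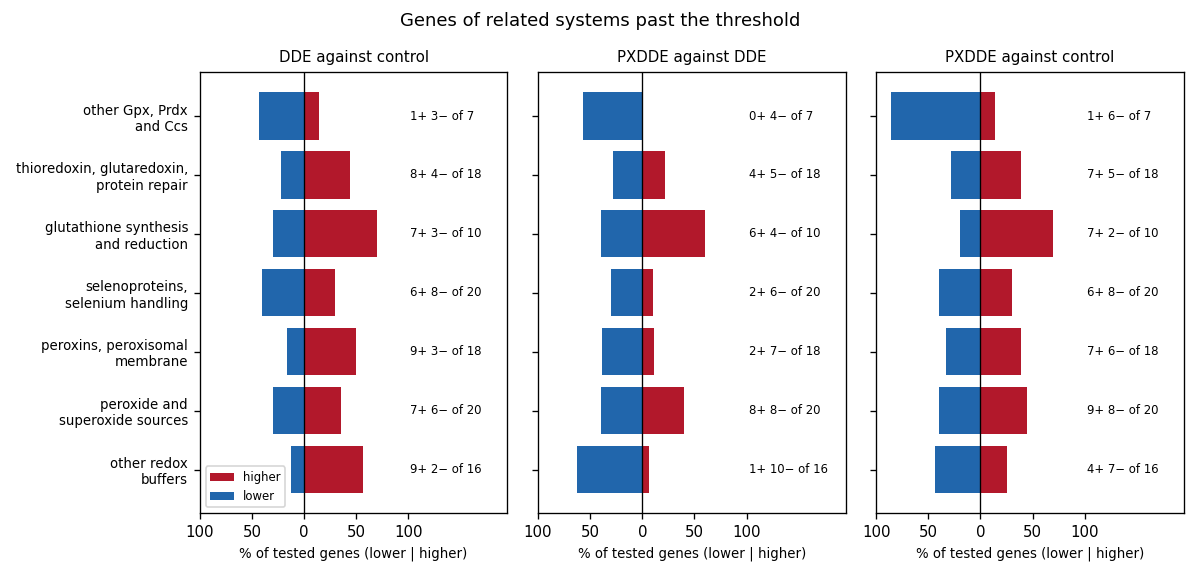
Bars give the percentage of tested genes of each of 7 lists that were called higher (right of 0) or lower (left of 0) in each comparison, with the counts beside them. The glutathione list had 7 of 10 genes higher in DDE against control livers, and the other redox buffers had 10 of 16 genes lower in PXDDE against DDE livers with the 75th percentile scaling plotted here, against 6 of 16 under quantile normalisation.

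Over the 112 listed genes, 109 were tested. With the 75th percentile, 47 rose and 29 fell in DDE against control livers, and more rose than fell under all 6 scalings, with 68 and 7 under median centring. In PXDDE against DDE livers 23 rose and 44 fell, but this majority turned around under 4 other scalings, with 31 and 19 under median centring and 36 and 23 in the deposited values. In PXDDE against control livers 41 rose and 42 fell, against 66 and 19 under median centring and 51 and 33 in the deposited values. Beside these counts, 50.3%, 49.9% and 70.9% of all genes were called in the 3 comparisons with the 75th percentile. Median centring called 59.4%, 52.3% and 75.6% of all genes, and 81.3%, 66.3% and 73.1% of those were higher. Its list counts therefore lean higher along with all genes. The medians with the 75th percentile were 0.124, -0.0828 and -0.0324, beside -0.0239, -0.0402 and -0.0577 over all genes. Of the 7 lists, only glutathione synthesis and reduction had more genes higher than lower under all 6 scalings in each of the 3 comparisons. That list also holds genes that break glutathione down and NADPH enzymes.

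The genes whose pattern over the 12 arrays was closest to that of Gpx4, by the root mean square difference of their values after each gene's own mean was removed, were Rps9 (0.048), Rpl26 (0.052) and Rpl10a (0.054). Those closest to Gpx1 were H2-Eb1 (0.052), Phpt1 (0.058) and Sirt3 (0.058). For Gpx3 they were Abcc5 (0.105), Acap1 (0.114) and Dmpk (0.133). These likenesses are over arrays that share scaling and slides, and they are a description with no test.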

How the data were processed

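Liver RNA of 12 arrays in 3 groups of 4 was measured on single-colour (Cy3) Agilent arrays, scanned and read with Feature Extraction 11.5.1.1 per the file headers. Each array has 62976 spots, of which 3671 are controls. The deposited scanner files give a linear intensity per spot, background-subtracted per the file headers. The authors also deposited a table of log2 values. The submitters' processing notes name RMA and limma for it, without its exact steps.

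Outlier spots and control spots were left out, the processed intensity was put on a log2 scale minus the array's 75th percentile, and spots of a probe were averaged. A probe was kept if every array of any 1 group measured it well above background (27098 of 56605), and the brightest kept probe stood for its gene. limma 3.58.1 (R 4.3.3) fitted the 3 groups together for 18678 genes with 9 residual degrees of freedom, and p-values were adjusted by Benjamini-Hochberg over all genes. Array number limits the precision. All 10 members were named. A rule gave, from each of 7 lists, up to 3 called genes per comparison with the smallest p and no overlap between groups. Not every gene that this rule gave is printed. The members and lists were chosen with earlier results of these data known. No genome, promoter or protein table was used here, so promoter motifs were not searched. The fit was tested on simulated data with 50 genes changed at each size. It recovered 24% of log2 changes of 0.25, 62% of 0.5, 88% of 1 and 98% of 2. Far fewer genes were changed there than were called in these data.

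Each slide (5 in all) was scanned as a unit, and 3 slides hold both groups of each comparison. Differences within 18 array pairs of the same group had SDs between 0.2315 and 0.3199, and none was identical. Replicate numbers come from the sample titles; arrays with the same number correlated at -0.368 to 0.132 after group means were removed, so the numbers do not pair the arrays. Alternatives were scaling, background correction, the dim-probe filter, probe choice, array weights, variance trend, samples in the fit, slide and replicate blocks, outlier spots, the deposited values and leaving out each array.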

Additional observations from a re-analysis of the deposited data

Results flagged for a closer look

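Among 45 sets of 4 arrays of the antioxidant probes, 2 held an array far from the other 3, and chance gives about 1 in 20. The Prdx6 coding probe read 5.45 in control replicate 4, against 5.25 to 5.27 in the other control livers. Gpx3 read 0.02 in control replicate 4, against -0.12 to -0.11 in the other control livers. Without control replicate 4, Gpx3 was still lower in DDE against control livers (-0.64, adjusted p = 0.004 by limma) and in PXDDE against control livers (-0.67, adjusted p = 0.00165).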

How the results depend on the processing

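Over 27 alternatives, Cat in both comparisons with control, Gpx1 and Gpx3 in both, Gpx4 in both comparisons of PXDDE livers and Prdx6 in DDE against control livers kept direction and call. Of 729 single-gene values, 35 changed sign. Scaling changed most. In PXDDE against DDE livers, 3 genes passed instead of 5 under quantile normalisation, normexp with quantile normalisation, median centring and the deposited values, with medians of 0.085, 0.088, -0.027 and 0.104 in place of -0.17. In PXDDE against control livers those medians were 0.234, 0.176, 0.251 and 0.227 in place of -0.124, and median centring gave 0.323 in place of 0.092 in DDE against control livers. Median centring also moved the median of all genes to 0.207, 0.103 and 0.317, and the share of called genes that were higher to 81.3%, 66.3% and 73.1%, against 47.7%, 40.6% and 44.5% with the 75th percentile. The cause was not tested.

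Signs turned, in the order quantile normalisation, normexp with quantile normalisation and deposited values, for Sod1 in DDE against control (0.022, 0.089, 0.071), PXDDE against DDE (0.212, 0.088, 0.156) and PXDDE against control livers (0.234, 0.176, 0.227). They turned likewise in PXDDE against DDE livers for Gpx1 (0.071, 0.082, 0.114), Prdx5 (0.085, 0.103, 0.109) and Prdx6 (0.116, 0.095, 0.104), and in PXDDE against control livers for Prdx1 (0.302, 0.271, 0.257) and Prdx5 (0.356, 0.383, 0.356). Median centring turned Sod1 (0.189, 0.061 and 0.251 in DDE against control, PXDDE against DDE and PXDDE against control livers), Gpx3 in PXDDE against DDE livers (0.115), and Prdx1 (0.227) and Prdx5 (0.343) in PXDDE against control livers. Prdx5 in PXDDE against control livers was 0.02 with normexp and 0.029 with the mean of its probes, and Gpx3 in PXDDE against DDE livers was 0.109 with array weights.

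Leaving out each array gave 5 to 7 called genes in DDE against control livers, 4 to 6 in PXDDE against DDE livers and 4 to 7 in PXDDE against control livers. Gpx3 in PXDDE against DDE livers ranged between -0.098 and 0.096. Prdx1 in DDE against control livers lost its call without DDE replicate 2, 3 or 4, PXDDE replicate 2, 3 or 4, or control replicate 1, 3 or 4 (adjusted p by limma up to 0.122). In PXDDE against control livers it lost it without DDE replicate 2 or 4, PXDDE replicate 2 or 3, or control replicate 1, 2 or 3 (up to 0.12). Sod1 in PXDDE against control livers was called without DDE replicate 1, PXDDE replicate 4 or control replicate 3 (lowest adjusted p = 0.0393).

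The replicate number as a block, which does not pair these arrays, removed the Prdx1 calls in DDE against control (adjusted p = 0.0954 by limma) and in PXDDE against control livers (adjusted p = 0.0888) and changed no other member's call. The slide as a block removed the Prdx1 calls in both (0.0913 and 0.0672), Prdx5 in DDE against control (0.0876) and Prdx6 in PXDDE against DDE livers (0.0818), and called Cat in PXDDE against DDE livers (0.032) and Sod1, at -0.15, in PXDDE against control livers (0.0197). The mean of the probes in place of the brightest called Sod1 lower in DDE against control (-0.337), PXDDE against DDE (-0.198) and PXDDE against control livers (-0.536), called Prdx6 higher in PXDDE against control livers (0.262), and removed the calls of Prdx6 in PXDDE against DDE (-0.04) and Prdx1 in PXDDE against control livers (-0.138).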
